A study of Homo sapiens with 24 samples.

Results

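The m6A landscape of human islet-like organoids (hILOs) was described from the peaks called on their m6A-seq libraries. All 31519 peaks of the hILO list were taken, of 228472 peaks in the 6 lists of the series, and they were grouped by the gene each peak names. The labels name the source as MEL1, a human embryonic stem cell line, and the methods of the study as MEL1 INS GFP/W, a heterozygous reporter in which GFP is driven by the insulin gene's own promoter, so that the INS locus of these cells is altered. The hILOs were made by stepwise differentiation over definitive endoderm (DE) and pancreatic progenitors (PP), the last part as aggregates in suspension. No treatment was compared in these cells, and the labels name 1 cell line and 1 batch. In m6A-seq, mRNA fragments of about 100 nt are pulled down with an antibody against N6-methyladenosine (here from SYSY) and sequenced (IP) beside the fragments before the pull-down (input). There were 2 IP and 2 input libraries, and stretches with more IP than input reads were called as peaks. Reads were deposited as 1 pooled IP and 1 pooled input count per peak, so the spread between replicates is unknown, no test was possible, and every interval below covers counting error alone.

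A complex around METTL3 and METTL14 writes N6-methyladenosine into mRNA while the transcript is made. FTO and ALKBH5 act as erasers, and YTH-domain and other RNA-binding proteins read the mark and affect splicing, translation and decay. The mark sits in the motif DRACH (where D stands for A, G or T, R for A or G, and H for A, C or T), above all in GGAC, and favours long exons and the start of the 3UTR. Islet organoids are made to hold hormone-producing endocrine cells, whose work is to sense glucose, to process prohormones in dense-core granules and to release them.

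To show where the marks of the organoid transcripts may lie, 30 nt are printed around the DRACH site nearest to the midpoint of a peak, sites with GGAC taken first, for transcripts that define the endocrine and enterochromaffin cells. Capitals mark the DRACH pentamer, letters are in the transcript sense, and coordinates are on GRCh38.
INS, first exon peak, coding, chr11:2160903-2160932, minus strand: ctggccctctggGGACCtgacccagccgca
INS, last exon peak, coding, chr11:2159850-2159879, minus strand: ctaccagctggaGAACTactgcaactagac
GCG, 5UTR, chr2:162152220-162152249, minus strand: gtacagagcttaGGACAcagagcacatcaa
PYY, 5UTR, chr17:43953883-43953912, minus strand: gtgcagcccttgGGACTtccctcgccttcc
SST, 3UTR, chr3:187668959-187668988, minus strand: aagtcttcagcgAGACCcttgcattagaaa
PDX1, CDS, chr13:27924452-27924481, plus strand: gaaaaaggaggaGGACAagaagcgcggcgg
NKX6-1, CDS, chr4:84493458-84493487, minus strand: caagaagaagcaGGACTcggagacagagcg
RFX6, CDS, chr6:116931404-116931433, plus strand: tcaagaaaccctGGACTcccatggaacaag
TPH1, 3UTR, chr11:18019880-18019909, minus strand: aagagtggtttaGGACTgagactgtaagta
FEV, CDS, chr2:218982133-218982162, minus strand: gttcaagctcacGGACCcggacgaggtggc
The sites of the first INS peak and of both PDX1 and NKX6-1 fall in coding sequence. The last INS site lies in the final codons of the message, just before its stop codon. A site in a peak is a match of letters and does not place the methylated base.

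The counts in the peaks need a caution before any gene is ranked by them. The 31519 peaks held 77537744 IP reads and 28463998 input reads, with a median of 737 IP reads and 302 input reads per peak. Peaks of the same gene did not carry like amounts of input. Across 12875 pairs of peaks that follow each other in the list on the same gene, log2 input reads per nt correlated with r = 0.23, against r = 0.17 for 18643 pairs on different genes. The 11 peaks of CEP290 ranged from 70 to 326415 input reads. Transcripts known to be among the most abundant of any cell had few reads, with 37 input reads in the only peak of EEF1A1, 433 in the 3 peaks of ACTB, and 3471 in the 12 peaks on mitochondrial mRNAs, 0.0122% of the input reads in peaks. The cause was not tested, and whether each count stands in the row of the peak it was measured on could not be checked from the list, so reads and enrichments may belong to other peaks or genes than those named. The log2 enrichment less the log2 ratio of the counts did go with the GC content of the peak in its row (Spearman rho -0.80 across peaks), so the deposited enrichment carries an offset that varies with GC. The read values below are therefore given as deposited and are not read as the level of a transcript, rankings by reads included. The same doubt covers the log2 enrichment and the p of each peak, which were estimated from such reads, so every enrichment given for a gene, list, region or motif stands as the deposited value. The account leads with which genes held peaks and where those peaks lay. The peaks were themselves chosen by enrichment and p, so the doubt may reach which genes held them. Counts left at a higher IP over input rest on the deposited enrichment.

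Of the 31519 peaks, 31246 (99.1%) matched a gene of GENCODE 44, in 13264 genes. Coding genes held 27266 peaks, 87.3% of those matched. Long non-coding RNAs held 3035 (9.71%) in 1897 genes, and pseudogenes 839 (2.69%). A peak covered 175 nt of exon at the median, with quartiles of 125 and 300 nt, and 30.1% of peaks ran over an intron. Among 20046 annotated coding genes, 10694 had at least 1 hILO peak, which is 53.3%. Most genes carried few peaks. A single peak was found in 42.8% of the 13264 genes (Wilson 95% interval 42.0% to 43.6%), 2 to 4 in 46.8%, 5 to 9 in 9.56% and 10 or more in 0.86%. The 114 genes with 10 or more peaks held 1472 peaks, 4.71% of those matched. The median log2 enrichment, the authors' estimate of IP over input, moved little over these classes, between 1.56 in genes with 1 peak and 1.52 in genes with 2 to 4.

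Of the 10 genes with most peaks 7 were coding and 3 were long non-coding RNAs. DST, a linker of intermediate filaments, actin and microtubules, led with 41 peaks, 28 of them placed in its CDS, and the log2 enrichment of these peaks ran from 0.66 to 2.40. KCNQ1OT1, the antisense RNA of an imprinted domain on chromosome 11, had 31 peaks with a median log2 enrichment of 2.23. It was followed by MACF1, another cytoskeletal linker, with 28, and by the scaffold protein AHNAK with 25, all 25 in the CDS. SRRM2, a protein of nuclear speckles, the transcription factor ZFHX3 and FTX, a long non-coding RNA of the X-inactivation centre, had 20 each. SNHG14, host of an imprinted snoRNA cluster, had 19, and the repressor SPEN and the cadherin FAT1 had 18 each. The 3 non-coding members had the highest medians of these 10 genes, 2.23 for KCNQ1OT1, 2.18 for FTX and 1.94 for SNHG14, against 1.53 over all peaks.

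**Figure D1:**
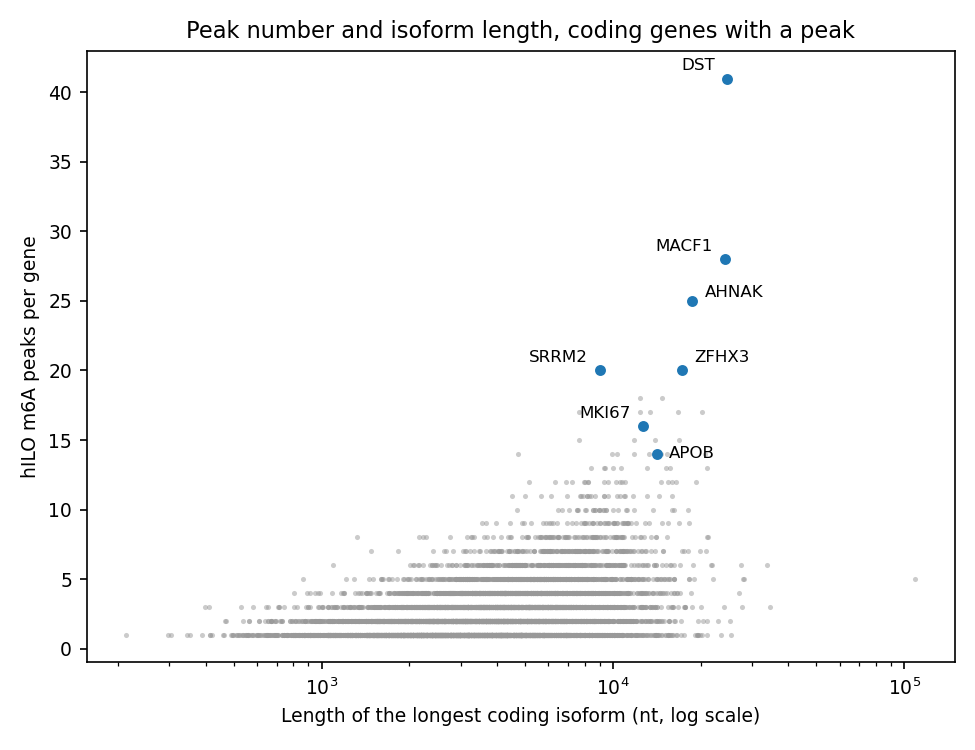
Number of hILO m6A peaks per gene (y axis) against the length of the longest coding isoform (x axis, nt, log scale) for the coding genes with a peak and a coding isoform, 1 point per gene, with 7 genes named in blue. All peaks of a gene are counted, also those off that isoform. Peak number rose with length, and DST with 41 peaks stood highest.

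Peak number went with transcript length. Over 10662 coding genes the number of peaks and the length of the longest coding isoform had a Spearman rho of 0.37, across genes, which are not replicates. Genes with isoforms under 1500 nt had 1.52 peaks on average and those over 8000 nt had 4.26, while the median per kb of isoform, among genes that had a peak at all, fell from 1.17 to 0.323. All peaks of a gene enter these numbers, also those that lie off that isoform.

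By the reads deposited in their rows, with the doubt above, other genes came first. No gene was among both the 10 with most peaks and the 10 with most IP reads. AHSA1, an activator of the HSP90 chaperone, held 4447066 IP and 1263051 input reads, 5.74% and 4.44% of all reads in peaks. IGF2, the imprinted fetal growth factor, held 2656204 IP reads in 6 peaks, the largest of which names 4 genes. ITGA8, an integrin subunit, held 2235020 in 1 peak of 75 nt, and TYW1, a tRNA-modifying enzyme, 2153400 in 3 peaks. PRMT6, an arginine methyltransferase, RAP1GAP, a GTPase regulator, the ciliary protein CEP290, the antisense RNA THUMPD3-AS1, the kinase CDC42BPB and UNC13B, a vesicle priming factor, followed with 1620748 to 811147 IP reads. By input reads, 8 of these 10 genes were again in the first 10, and the kinase MAP2K7, with 242504 input reads, and the splicing factor XAB2, with 241386, took the places of CDC42BPB and UNC13B. In 7 of the 10 genes with most IP reads, a single peak held at least 95% of the gene's IP reads. In AHSA1 it was a peak of 369 nt at chr14:77469104-77469472 (plus strand), 41 nt past the stop codon at its midpoint, with 3774189 IP reads or 84.9% of the gene. The first 10 genes held 23.8% of the IP reads and 18.5% of the input reads, the first 100 held 37.6% and 31.8%, and the first 1000 held 59.7% and 56.2%. IP and input reads ranked peaks nearly alike, with a Spearman rho of 0.96 across the 31519 peaks.

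Several hormone transcripts were marked. Of 7 islet hormone genes, 4 (57.1%) had a peak, a share near the 53.3% of all coding genes in the hILO list, and 2 were left at an IP over input of at least 3, where 35.7% of all coding genes were. INS, insulin, had 2 peaks. That of its first exon covered 375 nt with its midpoint in the 5UTR and held 58888 IP and 24198 input reads, with a log2 enrichment of 0.98 (counting error 0.011). The reporter alters 1 allele of this locus, and its part in these values was not tested. The peak of the last INS exon covered 100 nt around the stop codon and held 50081 IP and 25170 input reads, with 0.83. Both name a second gene of the locus beside INS. GCG, glucagon, had 1 peak of 528 IP and 241 input reads with a log2 enrichment of 1.65 (counting error 0.11). SST, somatostatin, had a peak in its first exon, 6865 IP and 4085 input reads with 0.86, and another 93 nt past the stop codon, 1471 and 503 reads with 1.81. PYY, peptide YY, had 1 peak of 1016 IP and 487 input reads with 1.03. IAPP, PPY and GHRL had none. Of the 6 hormone peaks 4 had midpoints in the 5UTR of the longest coding isoform, the region of 3.86% of all placed peaks. Other isoforms may place them elsewhere. The order of reads, INS over SST over PYY over GCG, has no replicate check.

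The secretory machinery was marked at more genes. Of 23 genes of granules and hormone processing, 20 (87.0%, against 53.3% of all coding genes) had 58 peaks in all, with a median log2 enrichment of 1.49. The prohormone convertases PCSK1 and PCSK2, which cut proinsulin and proglucagon, had 3 peaks each, those of PCSK1 all in the CDS with log2 enrichments from 0.67 to 1.78. CPE, the carboxypeptidase that trims the cut ends, had 3. The granule matrix protein CHGB had 1 peak with 10934 IP and 4733 input reads, and CHGA 1 with 104 and 25. SCG3 and PTPRN2, granule proteins too, had 5 each, and RIMS2, a scaffold of the release site, had 11, all of which name a second gene. SLC30A8, which loads granules with zinc, had 4. SCGN, PCSK1N and RAB3A had none. Of 14 genes of glucose sensing and stimulus coupling, 12 (85.7%, against the same 53.3%) had 35 peaks. The KATP channel subunits ABCC8 and KCNJ11 had 4 each, the glucose transporter SLC2A2 had 1, and the calcium channel CACNA1A had 8. GLP1R, the incretin receptor, had 3, all in the 3UTR. TRPM5 had none. The median log2 enrichment of this list was 1.27, and 2 of its 35 peaks (5.71%) reached an IP over input of 4, against 22.6% of all hILO peaks. With peaks of an IP over input of at least 3 alone, 5 of the 14 genes were left, against 35.7% of all coding genes.

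Endocrine transcription factors followed, with 19 of 22 genes (86.4%, against 53.3% of all coding genes) and 48 peaks at a median log2 enrichment of 1.47. PDX1 and NKX6-1, factors of pancreatic identity and of beta cells, had 2 peaks each, 1 in the CDS and 1 in the 3UTR. The CDS peak of NKX6-1 held 1374 input reads with a log2 enrichment of 1.75. NEUROD1 and RFX6 had 4 each, the 4 of RFX6 all in the CDS with log2 enrichments from 1.02 to 2.49. All NEUROD1 peaks name a second gene, and only 1 was placed in its CDS and 1 in its 3UTR. The NEUROD1 peak of highest log2 enrichment, 2.67, with 8112 IP reads, had its midpoint off the longest coding isoform. PAX4, a factor of the beta cell lineage, had 3. GLIS3 had 6. NEUROG3, the factor that starts endocrine commitment, had none, nor had MAFA and IRX1.

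**Figure D2:**
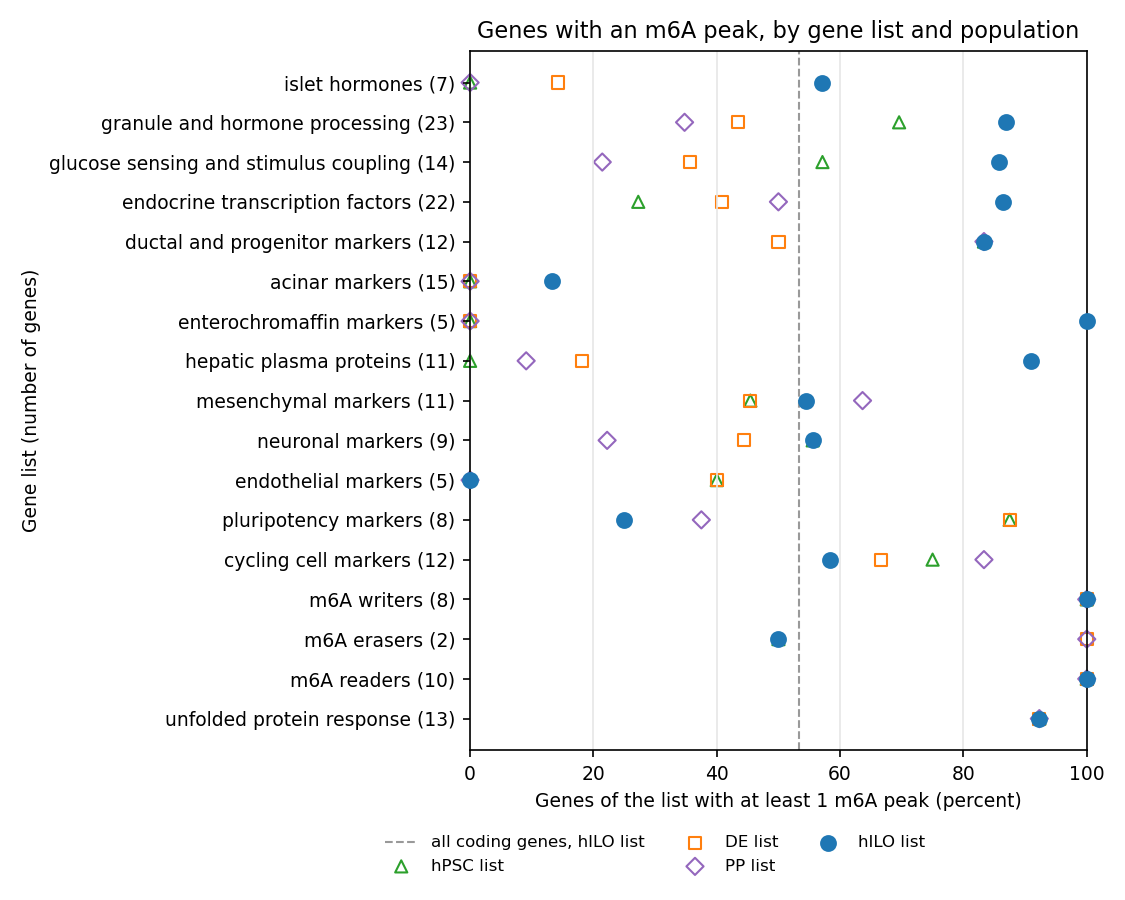
Share of the genes of each list with at least 1 m6A peak (x axis, percent), for the hILO list (filled circles) and the PP, DE and hPSC lists (open symbols), with the number of genes in each list in parentheses and a dashed line at the 53.3% of all coding genes in hILO. The granule, glucose sensing and endocrine factor lists sat between 85.7% and 87.0% in hILO, and the enterochromaffin list went from 0% in the earlier populations to 100%.

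Set beside the earlier populations of the same series, the endocrine lists had more genes with a peak in hILO. The share of all coding genes with a peak was 48.0% in PP, 53.0% in DE and 56.2% in the undifferentiated cells (hPSC), near the hILO value. Granule genes with a peak numbered 8 in PP, 10 in DE and 16 in hPSC, against 20 in hILO. Glucose sensing genes numbered 3, 5 and 8, against 12. Endocrine factors numbered 11, 9 and 6, against 19. No hormone gene had a peak in PP or hPSC and 1 (GHRL) had in DE. Each list of peaks was called on its own libraries, and the median input reads per peak were 302 in hILO, 87 in PP, 103 in DE and 66 in hPSC. Peaks on scarce transcripts may therefore not have been equally detectable, which was not tested. These counts come with no test, and with pooled cells fewer cells of a type and less RNA per cell cannot be told apart.

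Genes that mark other cell types were marked to unequal extents. All 5 enterochromaffin markers had peaks, 10 in all, against 53.3% of all coding genes. None of the 5 had one in PP, DE or hPSC. TPH1, the rate-limiting enzyme of serotonin synthesis, had 3 peaks in its 3UTR, each of which names 3 overlapping genes, the largest with 18405 IP and 7159 input reads and a log2 enrichment of 1.65. FEV, DDC and SLC18A1 had 2 peaks each and LMX1A had 1. At an IP over input of at least 3, 2 of the 5 were left, a share near the 35.7% of all coding genes left there. Of 11 hepatic plasma protein genes 10 had peaks (37 peaks), against 53.3% of all coding genes. Hepatic genes with a peak numbered 1 in PP, 2 in DE and 0 in hPSC. At an IP over input of at least 3, 4 of the 11 were left in hILO, again near 35.7%. APOB, the apolipoprotein of large lipoproteins, had 14 peaks, 13 of them in the CDS, and the fibrinogen chain FGB had 6 with 70077 input reads. ALB had 1 and APOH none. Ductal and progenitor markers had peaks in 10 of 12 genes in hILO (against 53.3% of all coding genes), 10 in PP, 6 in DE and 10 in hPSC. CFTR, the ductal chloride channel, had 7 peaks, and SOX9 had 1 with a log2 enrichment of 2.40. Acinar markers had peaks in 2 of 15 genes, REG1A and SPINK1, and the digestive enzymes such as PRSS1, CPA1 and AMY2A had none. Endothelial markers had 0 of 5, mesenchymal markers 6 of 11 and neuronal markers 5 of 9, the latter pair near the 53.3% of all coding genes. Of the pluripotency markers LIN28A and L1TD1 alone of 8 had peaks, against 7 of 8 in hPSC, and POU5F1 and NANOG had none. Cycling markers had peaks in 7 of 12 genes, near the 53.3% too, with 16 peaks on MKI67. At an IP over input of at least 3, 2 of the 12 were left, against 35.7% of all coding genes. The part of such cells in the other results was not tested. As a floor, 4 of 416 olfactory receptor genes (0.962%) and 2 of 94 keratin-associated protein genes (2.13%), lists added after the data were seen, had a peak.

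The m6A machinery was itself marked. All 8 writer genes had peaks, against 53.3% of all coding genes, 31 in all, with ZC3H13 at 7, VIRMA at 6, WTAP at 5, RBM15 at 4, METTL14 and RBM15B at 3, METTL3 at 2 and CBLL1 at 1. These writer peaks had a median log2 enrichment of 1.90, and 13 of 31 (41.9%) reached an IP over input of 4, against 22.6% of all peaks. All 10 reader genes had peaks, 38 in all, at a median of 1.33. YTHDC1, the nuclear reader, had 7, and YTHDF2, which brings marked mRNA to decay, had 4. The demethylase ALKBH5 had 3, 1 in the CDS and 2 in the 3UTR, with log2 enrichments from 1.09 to 2.65, and FTO had none. The unfolded protein response, by which a cell answers misfolded protein in the endoplasmic reticulum, had peaks in 12 of 13 genes, among them XBP1 with 4, ATF4 with 2 and the chaperone HSPA5 with 1. At an IP over input of at least 3, 7 of the 13 were left, beside 8 writers and 9 readers and 35.7% of all coding genes. Writers, readers and this response were marked at the same number of genes in PP, DE and hPSC, 8, 10 and 12.

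Gene families were taken by the start of the gene symbol, so that some related and readthrough genes are counted with them. Genes named ZNF, zinc finger proteins, held most peaks, 1263 in 373 of 515 genes (72.4%). In PP, DE and hPSC 74.8%, 77.9% and 78.6% of the ZNF genes had a peak. Of the 1150 placed ZNF peaks in hILO 747 lay in the CDS. An IP over input of 4 was reached by 33.6% of all ZNF peaks, against 22.6% of all hILO peaks, with a median log2 enrichment of 1.72. Solute carriers (SLC) came next with 432 peaks in 207 of 374 genes (55.3%), 228 of them in the 3UTR. Ubiquitin-specific proteases (USP) had 128 peaks in 43 of 78 genes (55.1%), and both shares were near the 53.3% of all coding genes. Symbols in RPL or RPS with a digit, ribosomal proteins but also S6 kinases, had 115 in 59 of 97 (60.8%), and symbols in EIF with a digit, mostly translation initiation factors, 101 in 44 of 56 (78.6%). The medians of these last 4 families ran from 1.46 to 1.58.

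On transcripts the peaks kept to the CDS and the 3UTR. Of 23421 peaks whose midpoint could be placed on the longest coding isoform, in 9952 genes, 53.6% lay in the CDS (Wilson 95% interval 52.9% to 54.2%), 42.6% in the 3UTR (41.9% to 43.2%) and 3.86% in the 5UTR (3.62% to 4.11%). The isoforms themselves gave 42.9%, 50.5% and 6.58% of their bases to these regions, so there were 0.636 peaks per kb of CDS, 0.430 per kb of 3UTR and 0.299 per kb of 5UTR. Within 200 nt of the stop codon lay 21.6% of the placed peaks on 8.55% of the bases. The density was highest in the first 100 nt past the stop codon, 1.58 peaks per kb, and the next 100 nt had 1.55. It was 0.544 per kb from 1400 to 1500 nt upstream and 0.295 per kb as far downstream. Of the 3UTR peaks, 42.1% lay in the first 20% of the 3UTR.

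**Figure D3:**
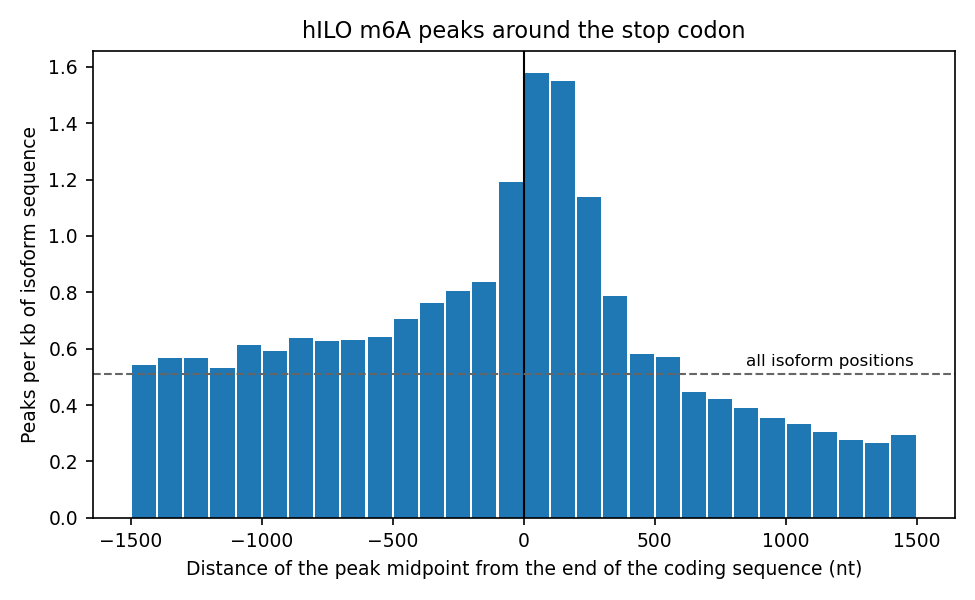
Density of hILO peak midpoints (y axis, peaks per kb of isoform sequence) by distance from the end of the coding sequence (x axis, nt, bins of 100 nt, negative values upstream), with a dashed line at the density over all isoform positions, 0.51 per kb. The bars climb through the CDS, peak at 1.58 just past the stop codon and fall to 0.295 at the right edge.

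Long internal exons were the densest class. Internal exons of 400 nt or longer held 3190 peaks on 6.92% of the isoform bases, 1.00 per kb. Internal exons from 150 nt to under 400 nt had 0.403 per kb and those under 150 nt had 0.441. Last exons held 13282 peaks at 0.512 per kb, the few single-exon isoforms 0.637, and first exons 0.319. The isoform of each gene was the longest in the annotation and need not be the form in hILOs.

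Enrichment was narrow around its centre. The log2 enrichment had a median of 1.53 and quartiles of 1.14 and 1.95, with a median counting error of 0.0989 per peak. It was 1.38 in the 5UTR (rank interval 1.32 to 1.43), 1.53 in the CDS (1.51 to 1.54) and 1.53 in the 3UTR (1.52 to 1.55). Enrichment was lower where input was higher, with a Spearman rho of -0.43 across the peaks, which share the input count. The order of the 5UTR and the CDS was not kept when 1 offset served for all peaks, which gave 1.55 and 1.53. Among peaks with at least 200 input reads, CIC, a transcriptional repressor, had the highest value, 4.505, on a peak of 1740 nt with 6215 IP and 207 input reads. The p of the authors' peak calling was 3.34e-11 for CIC, the weakest among the 10 highest peaks. LUC7L3 and SREK1, both splicing factors, followed with 3.38 and 3.26, and N4BP2, FEM1C, ROBO1 and DNAJB4 had 3.08 to 3.03. The other 3 of the 10 highest were genes without a symbol. The 10 lowest, among them those on SAFB, CYP1A1, CNN2, INKA2-AS1, ZNF587B, NHERF1, SLC35C2, RABEP1 and TEX14BP, lay at 0.59, the limit of the list. Some rows with a high deposited enrichment had no GGAC within the peak span. Whether GGAC lay just outside such spans was not examined. The N4BP2 peak at chr4:40121079-40121253 (plus strand, CDS), with 1536 IP and 238 input reads, is printed whole with its 5 DRACH pentamers in capitals, and it has no GGAC.
N4BP2, CDS: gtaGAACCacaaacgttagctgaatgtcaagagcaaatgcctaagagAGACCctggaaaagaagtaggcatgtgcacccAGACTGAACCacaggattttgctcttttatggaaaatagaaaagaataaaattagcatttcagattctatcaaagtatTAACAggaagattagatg

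Peaks were richer in the m6A motif than the rest of the same exons. GGAC occurred 4.42 times per kb in peaks and 3.22 times outside them, a ratio of 1.37 (counting interval 1.36 to 1.39). On the opposite strand the ratio was 0.886. All DRACH sites together had a ratio of 1.23. Of the 18 DRACH pentamers, 14 were denser in peaks. GGACA had the highest ratio, 1.48, followed by GGACT with 1.43 and GAACA with 1.42, and TAACT had the lowest, 0.866. GGAC was present in 55.4% of peaks and any DRACH in 92.8%. The median log2 enrichment was 1.51 with GGAC and 1.56 without (rank interval 1.55 to 1.57), whereas it was 1.54 with any DRACH (1.53 to 1.55) and 1.43 without (1.40 to 1.46).

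**Figure D4:**
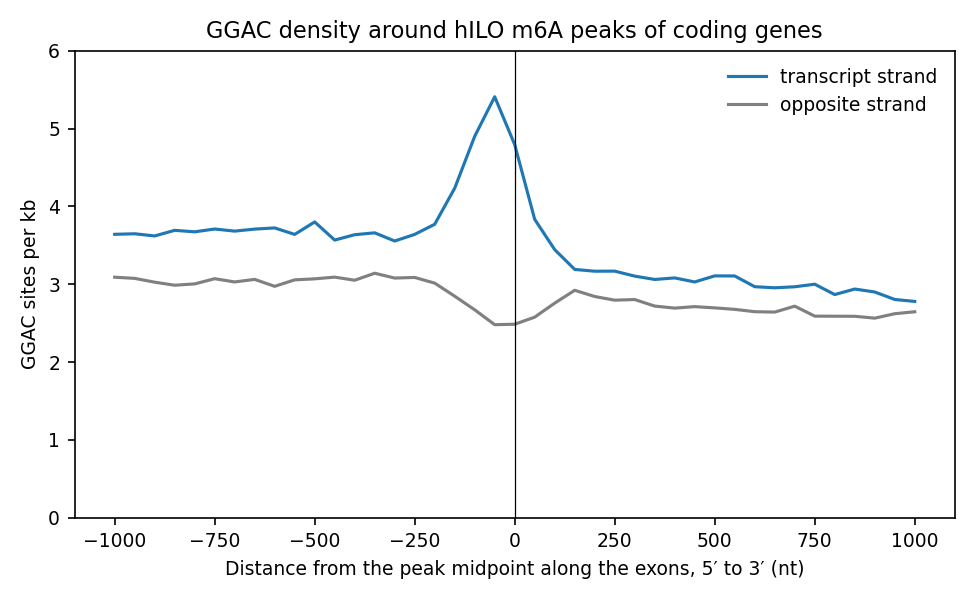
GGAC sites per kb (y axis) in 50 nt windows by distance from the peak midpoint along the exons of coding genes (x axis, nt, 5′ to 3′), on the transcript strand (blue) and on the opposite strand (grey). The blue line rises to 5.41 per kb in the window 50 nt upstream of the midpoint, and the grey line dips to 2.48 there.

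Along the transcript, the density of GGAC rose from 3.64 per kb at 1000 nt upstream of the midpoint to 5.41 at 50 nt upstream, and was 4.79 at the midpoint and 2.78 at 1000 nt downstream. The density was thus highest just upstream of the called midpoints, on the transcript strand. GGAC was not denser in the peaks of highest enrichment, and DRACH was not ranked in this way. Ranked by log2 enrichment, the lowest 10% of peaks had a GGAC ratio of 1.41 at a median GC content of 50.5%, and the highest 10% had 1.24 at 41.1%. This ranking holds the GC-dependent offset of the deposited enrichment, whose part in the ratios was not tested. Ranked by input reads per nt, the ratio was 1.18 in the lowest 10%, 1.498 in the 5th group of 10 and 1.37 in the highest 10%.

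**Figure D5:**
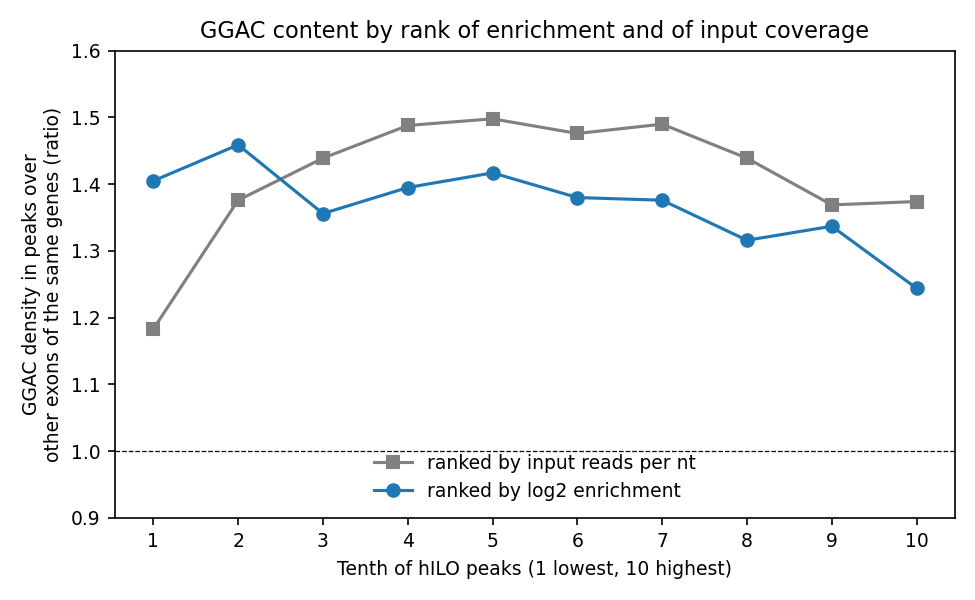
Ratio of GGAC density in hILO peaks to that in the other exons of the same genes (y axis, from 0.9) for 10 equal groups of peaks (x axis) ranked by log2 enrichment (blue circles) or by input reads per nt (grey squares). The blue points run between 1.24 and 1.46 and are lowest in the most enriched group, and the grey points rise from 1.18 to 1.498 before they fall.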

How the data were processed

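m6A-seq of hILOs comprised 2 IP and 2 input libraries. The authors enriched mRNA, used fastp for trimming and HISAT2 for alignment to GRCh38, and called peaks on the libraries together with exomePeak2. The read counts of IP and input per peak were deposited pooled over libraries, whether as sums or means is not given in the sources used here. The authors deposited a log2 enrichment and a p-value with an adjusted p-value. The study gives an IP over input of at least 1.5 and p below 1e-05, and 94.3% of hILO peaks met the latter. The log2 values were at least 0.585.

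Spans were reduced to the exons of their gene in GENCODE 44, and of the 17.5% of peaks that name several genes each went to the gene with most exonic overlap. Midpoints were placed on the longest coding isoform. DRACH and GGAC were counted on the transcript strand. Counting errors added 0.5 to each count, and intervals are Wilson, rank or counting intervals (95%). Genes were named as the 10 with most peaks, IP reads or input reads, the 10 highest and lowest enrichments at 200 or more input reads, the 5 families with most peaks, and members of 17 gene lists and 20 families. Members and lists were chosen with earlier results of these data known. PCR copies are not independent molecules, so intervals cover counting error only. Functions for positions and motifs were tested on simulated data. Python 3.11.15 with pandas 2.3.3, numpy 2.4.6 and pysam 0.24.0 was used. Some genes that these rules name are not reported here.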

Additional observations from a re-analysis of the deposited data

How the results depend on the processing

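No paired analysis was possible because the deposited counts are pooled over the libraries of each kind, and for the same reason no library could be left out. An IP over input of at least 3 left 14684 peaks of 31519, p below 1e-10 left 21544 and merging peaks under 100 nt apart left 28436. Coding genes with a peak numbered 7147 and 9069 under the first 2 of these, and 11555 when every gene named by a peak was counted, a setting chosen after seeing the data. The share of IP reads in the first 100 genes was 51.4% at a ratio of at least 3, 39.6% at p below 1e-10 and 37.65% without the mitochondrial genome, and that of input reads was 49.6% and 34.2% under the first 2. Counted by any overlap, 64.4% of placed peaks touched the CDS, 47.7% the 3UTR and 6.80% the 5UTR, and at p below 1e-10 the 5UTR held 3.53%. The median log2 enrichment was 1.64 at p below 1e-10 and 1.47 at 50 or more input reads. By region these settings gave 1.51 and 1.32 in the 5UTR, 1.64 and 1.48 in the CDS and 1.64 and 1.48 in the 3UTR, and 1 offset for all peaks (pseudocount 1) gave 1.55 in the 5UTR and 1.51 in the 3UTR. The GGAC ratio was 1.34 at p below 1e-10 and 1.70 against the opposite strand of the peaks, and the DRACH ratio was 1.43 against the opposite strand. At p below 1e-10, chosen for the lists after seeing the data, peaks were left on 17 of the granule, 9 of the glucose sensing, 15 of the endocrine factor and 5 of the enterochromaffin genes, and at a ratio of at least 3 on 15, 5, 13 and 2. The latter also left 4 of the hepatic, 2 of the hormone, 2 of the cycling and 7 of the unfolded protein response genes, with 35.7% of all coding genes left, and each of these settings left 1 of the acinar and 1 of the pluripotency genes. Of the peaks 92.1% had 50 or more input reads.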

Other observations

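Other families, again taken by symbol, differed in how many of their genes were marked in hILOs. Synaptotagmins, the calcium sensors of vesicle fusion, had peaks in 8 of 18 genes, against 0 in PP, 6 in DE and 13 in hPSC. HOX factors, which set position along the body axis, had peaks in 3 of 39 genes, against 13 in PP and 2 each in DE and hPSC. All 5 genes of the KMT2 lysine methyltransferases were marked, with 59 peaks, 47 of them in the CDS, and lysine demethylases had 66 peaks in 16 of 20 genes. Mitochondrial ribosomal proteins had peaks in 67 of 78 genes, proteasome subunits in 31 of 40, symbols in NDUF, complex I subunits and assembly factors, in 32 of 48 and mitochondrial mRNAs in 10 of 13. Calcium channel subunits had peaks in 14 of 26 genes, collagens in 19 of 44, claudins in 10 of 24, potassium channels in 37 of 96, protocadherins in 24 of 66 and histones in 12 of 43. Keratins had them in 4 of 55. The share over all coding genes was 53.3%, and none of these counts has a test.

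Some genes with very many reads lay close to mitochondrial mRNAs in the order of their Ensembl identifiers. Of the 10 genes with most IP reads, 5 (TYW1, PRMT6, CEP290, CDC42BPB and UNC13B) stood within 25 places of a mitochondrial coding gene in that order, against 0.853% of all genes with a peak outside the mitochondrial genome. Of the 10 with most input reads 3 did. The 3 genes with most IP reads, AHSA1, IGF2 and ITGA8, were 15449, 5750 and 16395 places away. AHSA1 stood 8 places before CHGA, whose own peak held 25 input reads, a single pair for which no share over other genes was taken. These positions were noticed after the reads were seen and were not tested further.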
